A study of Xenopus laevis with 4 samples.

Results

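The proteasome genes of Xenopus laevis embryonic skin were taken as all probe sets whose single gene symbol in the platform annotation, without the homeolog suffix, begins with psm, a letter from a to g and a digit. This rule uses names and no measured value. It found 76 of 16745 probe sets, which stand for 63 genes. This frog is allotetraploid, and many genes have a long-chromosome copy (.L) and a short-chromosome copy (.S), called homeologs, which were kept apart as separate genes. Of the 63 genes, 24 encode subunits of the 20S core (psma and psmb) and 9 the ATPases (psmc). Another 18 are psmd genes, called lid and base here, 6 encode activators (psme) and 4 an inhibitor and assembly chaperones (psmf and psmg). Among the psmd genes, psmd5.L, psmd9.L, psmd9.S and psmd10.L encode assembly chaperones and were kept in that class. The pattern also matched psmc3ip.L, a recombination factor in mammals, and psme3ip1.S, an interacting protein of an activator. Both are no subunits and were left out of the counts below, which cover 61 genes.

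The samples were whole skins isolated at stage 24, 20 per sample, from embryos grown at 15 °C, and total RNA was hybridised to Affymetrix arrays. In 2 samples the embryos had been treated with SP600125, a small molecule that competes with ATP in the Jun kinases (JNK). The treatment lasted from stage 14 to stage 24, and its dose stands in the labels as 100 mM, a value not checked here. The other 2 samples are labelled as controls with no treatment, and no vehicle is named. The wild-type or other genotype of the embryos is not stated, nor is whether separate clutches were used within a group. The p-values therefore reflect the variation between 2 pools of skins per group, part or all of which may be technical. The series title speaks of depleted JNK signalling, but no measure of kinase activity was analysed here. Over all probe sets the arrays separated more by replicate number (62.7% of the variation between arrays, as sums of squares) than by treatment (20.8%), and the labels do not say what the number marks.

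The proteasome degrades proteins tagged with ubiquitin. Its 20S core is a barrel of outer alpha rings, which form the gate, and inner beta rings, which hold the proteolytic sites. A regulatory particle caps the barrel: its lid and base bind and deubiquitinate substrates, and a ring of ATPases unfolds them and feeds them into the core. Activators of the psme family can cap the core instead, without ATP. In mammals, interferon raises psme1, psme2 and the immunoproteasome subunits psmb8 and psmb9, and the transcription factor NFE2L1 raises subunit genes together when proteasome activity is short.

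The genes of the 20S core, the ATPases and the lid and base differed little between SP600125 and control skins. The log2 difference, SP600125 minus control, had a median of 0.05 over these 51 genes and also over the 61 genes of all classes, beside 0.02 over all 11295 genes measured. The median size of the difference, regardless of sign, was 0.08 log2 units in the 51 genes, 0.09 in the 61 and 0.17 in all genes. The comparison was not matched for level: 2641 of all genes had a mean log2 value under 5, against 5 of the 61. Differences of at least 0.5 log2 units occurred in 3 of the 61 genes (4.92%), beside 10.4% of all genes. Those 3 were the assembly chaperone psmd9.L and the activators psme2.L and psme1.S. Both SP600125 arrays lay above both control arrays in 3 genes (psmd9.S, psme2.L and psme1.L), 4.92% of the proteasome genes, beside 12.3% of all genes. Both lay below in 1 gene, psma1.L, which is 1.64%, beside 9.1% of all genes. In the other 57 genes the groups overlapped.

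No proteasome probe set passed the test. With limma's moderated test and Benjamini-Hochberg adjustment over 16745 probe sets, 0 of 76 had an adjusted p under 0.05, beside 0.0% of all probe sets, and the adjusted p was 1 for every one. At an unadjusted p under 0.05 the same fit gave 0 of 76, beside 1.61% of all probe sets (269), and the smallest unadjusted p among the 76 was 0.141. This fit leaves the variation that goes with replicate number in its residual, so the counts do not show that the genes were unchanged. With a replicate block in limma, 1063 of 16745 probe sets and 2 of the 76 had an unadjusted p under 0.05. With 2 arrays against 2, an exact permutation test of a single value cannot go below a two-sided p of 0.333. The 95% interval of a gene's difference reached a median of 0.68 log2 units to either side, or 1.60-fold. In these bulk samples fewer cells of a type and less RNA per cell cannot be told apart. Single genes are given below as RMA log2 levels on each array, with the replicate order 1 and 2, and as log2 differences ± SE of the fit.

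**Figure D1:**
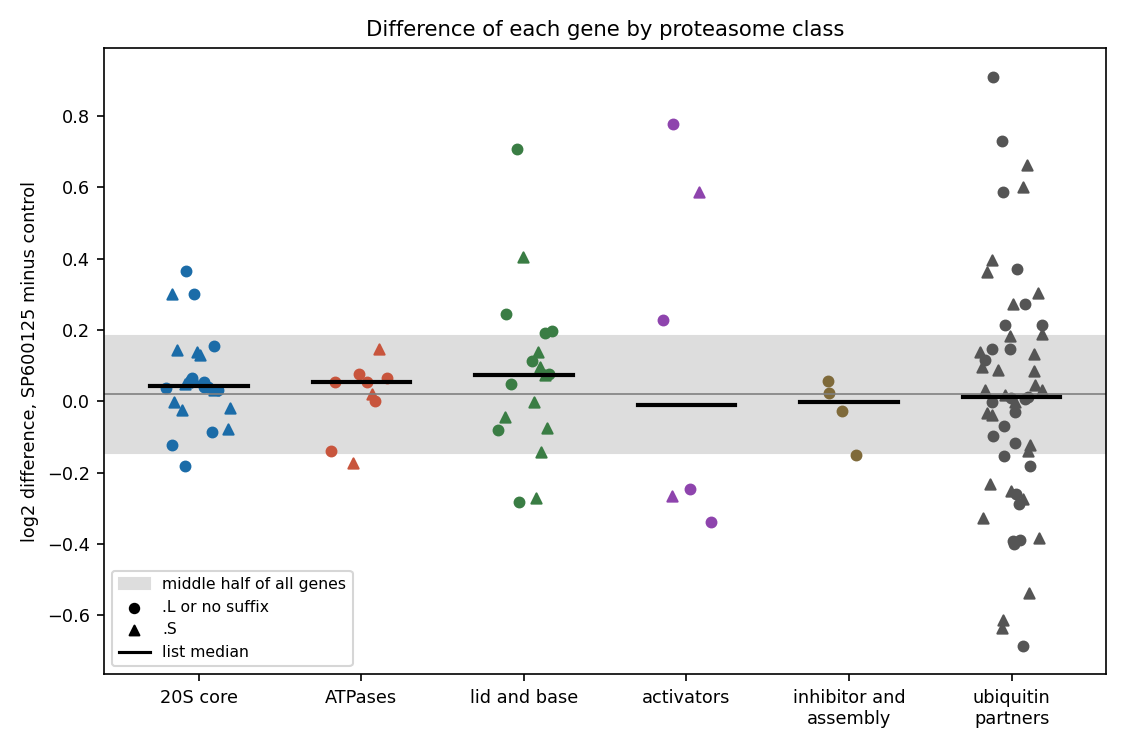
Each point is the log2 difference, SP600125 minus control, of 1 gene (circles .L or no suffix, triangles .S), by class on the x axis, with the ubiquitin partner list at the right. Black bars are medians, and the grey band is the interquartile range of all 11295 genes, from −0.15 to 0.18. The core and ATPase genes lie between −0.18 and 0.37, and the activators lie at both ends of the proteasome range, from −0.34 to 0.78.

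In the 20S core the median difference was 0.04 over 24 genes, with a range from −0.18 to 0.37. The 12 alpha subunit genes had a median of 0.10 and the 12 beta subunit genes one of 0.04, and 17 of the 24 means were higher. Apart from psma3.S and psma4.L, the alpha genes differed by −0.12 to 0.15. The alpha subunit gene psma4.L read 9.18 and 9.99 in SP600125 skins, against 9.17 and 9.40 in control skins. Its difference of 0.30 ± 0.35 rested on SP600125 replicate 2, since the other SP600125 array lay between the controls. The homeolog psma4.S differed by 0.14 ± 0.21. The level of psma3.S was 7.84 and 8.68 in SP600125 skins, against 7.69 and 8.23 in control skins, a difference of 0.30 ± 0.39, while psma3.L differed by 0.06 ± 0.24. Both groups overlapped for both psma3 genes. The gene psma1.L, named after its values were seen, was 9.36 on both SP600125 arrays, against 9.57 and 9.39 in controls, so that the groups were parted by less than the gap between the controls. Its homeolog psma1.S differed by −0.03 ± 0.29.

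The 3 catalytic beta subunits of the standard core showed no difference beyond the spread between arrays. For psmb5.L, the chymotrypsin-like subunit, the levels were 10.26 and 10.53 in SP600125 skins, against 10.35 and 10.36 in control skins, a difference of 0.04 ± 0.21. Its second probe set differed by −0.07 ± 0.25, so the sign of this gene depends on the probe set. For psmb6.L, the caspase-like subunit, the levels were 11.25 and 11.30 in SP600125 skins, against 11.23 and 11.49 in control skins, and psmb6.S differed by 0.05 ± 0.22. The trypsin-like subunit psmb7.S read 10.99 and 11.50 in SP600125 skins, against 11.23 and 11.30 in control skins, with a difference of −0.02 ± 0.26. Both control arrays of psmb7.S lay between the SP600125 arrays, and the same was true of psmb5.L. The 95% intervals ran from −0.53 to 0.61 for psmb5.L, from −0.65 to 0.48 for psmb6.L and from −0.73 to 0.69 for psmb7.S. The lowest difference of the core was that of psmb4.L, a structural beta subunit, at −0.18 ± 0.36.

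The beta subunits that replace catalytic ones in the mammalian immunoproteasome were dim. The level of psmb8.L was 3.76 and 4.35 in SP600125 skins, against 3.42 and 3.96 in control skins. Its difference of 0.37 ± 0.33 was the highest of the core, and the groups overlapped. It was 0.074 without SP600125 replicate 2 and 0.098 without control replicate 1. The level of psmb9.S was 4.52 and 4.73 in SP600125 skins, against 4.42 and 4.72 in control skins, a difference of 0.05 ± 0.22. A further psmb7 copy, psmb7.2.L, read between 3.08 and 3.26 on the 4 arrays. These were the only core genes with a mean log2 value under 5, where RMA compresses differences. In the RefSeq gene table psmb8.L stands next to tap1.L, a peptide transporter gene of antigen presentation. No probe set carried the symbol psmb10.

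The group means of the ATPase genes differed by −0.17 to 0.15, with a median of 0.05 over 9 genes. The median gap between arrays was 0.34 log2 units in the SP600125 group and 0.15 in the control group. In the 20S core these gaps were 0.30 and 0.18. The groups overlapped in all 9. All 6 ATPases were represented. The level of psmc5.L was 9.91 and 9.99 in SP600125 skins, against 9.99 and 9.91 in control skins, a difference of 0.00 ± 0.19. Its homeolog psmc5.S read 9.71 and 9.32 in SP600125 skins, against 9.80 and 9.57 in control skins, which gave the lowest difference of the ring, −0.17 ± 0.24. For psmc4.L the difference was −0.14 ± 0.38, and for psmc3.L it was 0.08 ± 0.25. The highest, 0.15 ± 0.33, was that of psmc3.S, whose level between 4.60 and 5.39 was low. The other members, psmc1.L, psmc2.L, psmc6.L and psmc6.S, differed by 0.02 to 0.07. The 5 probe sets of psmc1.L ranged from 0.07 to 0.26, all above 0.

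In the lid and base the median difference was 0.07 over 18 genes, with 11 means higher and 7 lower. The proteins of this group that handle ubiquitin include psmd4, a ubiquitin receptor, and psmd14, the deubiquitinase of the lid. The level of psmd4.S was 10.63 and 9.91 in SP600125 skins, against 10.72 and 10.36 in control skins, a difference of −0.27 ± 0.34. Its other probe sets differed by −0.21 ± 0.38 and, for a dim one, by 0.30 ± 0.25, so the probe sets of psmd4.S disagreed in sign. The level of psmd14.L was 9.91 and 10.29 in SP600125 skins, against 9.72 and 9.99 in control skins, a difference of 0.25 ± 0.25, which was 0.059 without SP600125 replicate 2 and 0.11 without control replicate 1. Its homeolog psmd14.S differed by 0.07 ± 0.25, and the groups overlapped for both copies. The lid subunit psmd6.L had the lowest difference of this class, at 10.85 and 10.26 in SP600125 skins, against 11.05 and 10.63 in control skins (−0.28 ± 0.31). The homeolog psmd6.S differed by −0.14 ± 0.27. No probe set carried the symbol psmd11. The 2 genes of the base scaffold psmd2 shared a probe set that names both copies, with a difference of −0.18 ± 0.26.

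The genes with the highest differences of this class were both copies of psmd9, which is no stable subunit but a chaperone that assists assembly of the ATPase ring. The level of psmd9.L was 8.09 and 8.68 in SP600125 skins, against 7.23 and 8.13 in control skins. SP600125 replicate 1 lay just below control replicate 2, so the groups overlapped by a small margin. The difference was 0.71 ± 0.42, or 1.63-fold, with a 95% interval from −0.44 to 1.86. The level of psmd9.S was 9.007 and 8.996 in SP600125 skins, against 8.36 and 8.83 in control skins. Here both SP600125 arrays lay above both controls, with a difference of 0.40 ± 0.25 and a 95% interval from −0.27 to 1.08. The 2 controls of psmd9.L differed by 0.90 and those of psmd9.S by 0.47, more than the group means did. Leaving out control replicate 1 lowered the differences to 0.26 for psmd9.L and 0.17 for psmd9.S, and leaving out control replicate 2 raised them to 1.16 and 0.64. The other chaperones of the base in this group, psmd5.L and psmd10.L, differed by 0.19 ± 0.26 and 0.11 ± 0.34.

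The activator genes differed most among themselves. Their arrays of one group were also the furthest apart of all classes, by a median of 0.66 log2 units in SP600125 skins and 0.60 in control skins. In the 20S core these gaps were 0.30 and 0.18. The psme1 and psme2 proteins form a joint ring (PA28 alpha and beta) on the core, psme3 forms a nuclear ring of its own (PA28 gamma), and psme4 is a large single-chain activator. For psme2.L the level was 6.53 and 6.78 in SP600125 skins, against 5.34 and 6.42 in control skins. The groups did not overlap, and the difference of 0.78 ± 0.43, or 1.72-fold, was the highest of all proteasome genes, with a 95% interval from −0.40 to 1.96. The controls of psme2.L differed by 1.075, more than the group means did. Control replicate 1 was the low array: without it the difference was 0.24, and without control replicate 2 it was 1.32. The level of psme1.S was 4.10 and 6.45 in SP600125 skins, against 3.79 and 5.58 in control skins. This gene differed by 2.36 and 1.79 log2 units between the arrays of the SP600125 and control groups, more than the group means did (0.59 ± 1.05). Its difference was −0.59 without SP600125 replicate 2 and 1.77 without SP600125 replicate 1, runs in which the replicate numbers are uneven between the groups. At each replicate number psme1.S was higher in SP600125 skins than in control skins. For psme1.L, which was dim, the level was 3.18 and 3.42 in SP600125 skins, against 2.98 and 3.17 in control skins, a difference of 0.23 ± 0.21. In the RefSeq gene table psme1.L and psme2.L lie on the same chromosome with only emc9.L between them.

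The means of psme3 and psme4 lay on the other side of 0. The level of psme3.L was 9.35 and 9.99 in SP600125 skins, against 9.78 and 10.23 in control skins, the lowest difference of all proteasome genes (−0.34 ± 0.33). The level of psme3.S was 8.89 and 9.63 in SP600125 skins, against 9.27 and 9.79 in control skins, a difference of −0.27 ± 0.37. In both psme3 copies SP600125 replicate 1 was the lowest array, and SP600125 replicate 2 lay between the controls. The level of psme4.L was 8.61 and 7.93 in SP600125 skins, against 8.86 and 8.17 in control skins, a difference of −0.25 ± 0.38. Without SP600125 replicate 1 the difference of psme3.S was 0.10, and without SP600125 replicate 2 that of psme4.L was 0.095. The difference of psme3.L was −0.019 without SP600125 replicate 1. Runs without 1 array leave the replicate numbers uneven between the groups, so these values contain part of the gap between replicates. At each replicate number psme3.L, psme3.S and psme4.L were lower in SP600125 skins than in control skins. The differences of psme1.L, psme1.S and psme2.L were thus above 0 and those of the other 3 activator genes below, which left the class median at −0.01. Without psme1.L and psme1.S, whose mean log2 values over the 4 arrays were under 5, the median of the other 4 was −0.26. The gene psme1.S was under 5 on the replicate 1 arrays only. Whether the 2 kinds of activator differ from each other in their response was not tested.

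**Figure D2:**
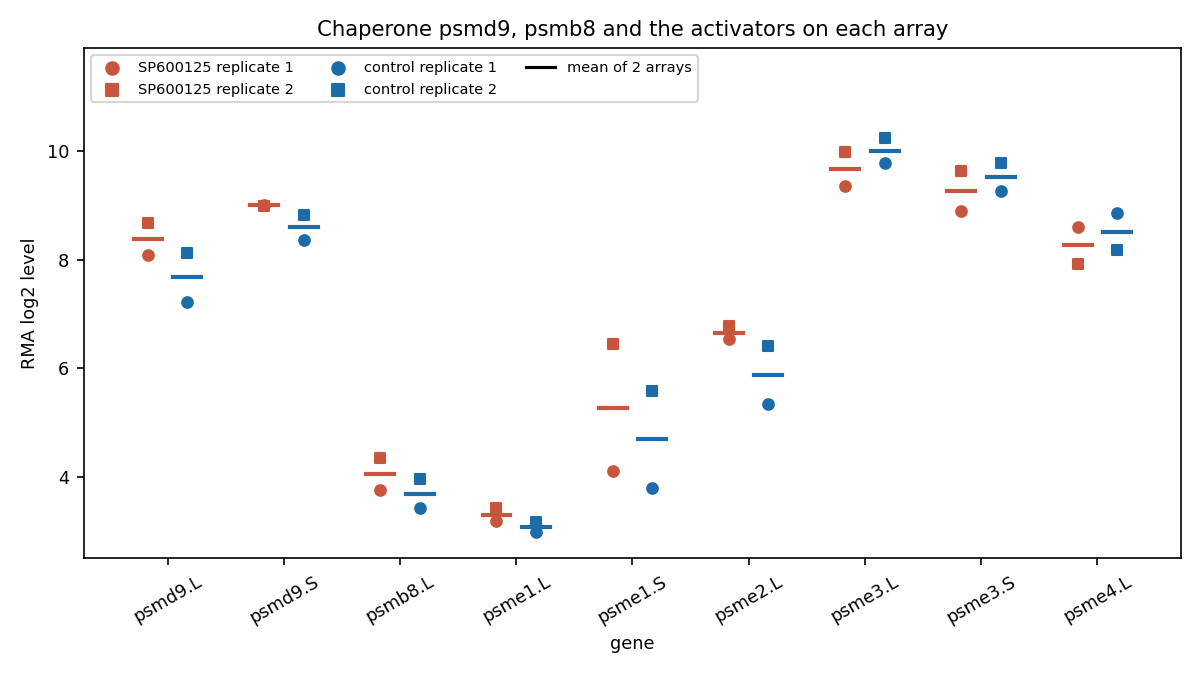
The y axis gives the RMA log2 level of 9 genes on each array, with SP600125 left of control, circles for replicate 1, squares for replicate 2 and bars for the mean of 2 arrays. Levels of different genes are not comparable. Control replicate 1 is the lowest array of psmd9.L, psmd9.S, psmb8.L, psme1.L, psme1.S and psme2.L. In each of the 9 genes the gap between arrays of at least 1 group exceeds the gap between the group means. The widest such gap is that of psme1.S.

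The inhibitor and the assembly chaperones of the core lay near 0. The inhibitor psmf1.L differed by −0.03 ± 0.32, with 7.84 and 7.23 in SP600125 skins, against 7.78 and 7.33 in control skins. The psmg proteins, which help to build the alpha ring, differed by −0.15 ± 0.26 for psmg1.L, by 0.02 ± 0.34 for psmg2.L and by 0.06 ± 0.21 for psmg3.L. All 4 genes overlapped between the groups, and no probe set carried the symbol psmg4. Apart from the subunits, psmc3ip.L differed by 0.17 ± 0.32 and psme3ip1.S by 0.07 ± 0.21.

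Both homeologs were measured for 18 genes, and in 14 of them the copies differed from control in the same direction. The signs were opposite for psma6, psmb6 and psmd1, and psmc5.L stood at 0.00. The median gap between the differences of the copies was 0.14 log2 units, and the widest gap, 0.36, was that of psme1. The copies of psmd9, with 0.71 for .L and 0.40 for .S, had the highest pair of values. Those of psme3 had the lowest, with −0.34 and −0.27. Probes of one copy can bind transcripts of the other, so the copies are not independent measurements. The share of all homeolog pairs on the array with the same sign was not computed, so the 14 of 18 is a description only. Of 8 genes with more than 1 probe set, 6 had the same sign in all of them, and psmb5.L and psmd4.S did not. Of 85 genes in the RefSeq table whose names fit the pattern, 63 were measured by a probe set with 1 symbol.

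**Figure D3:**
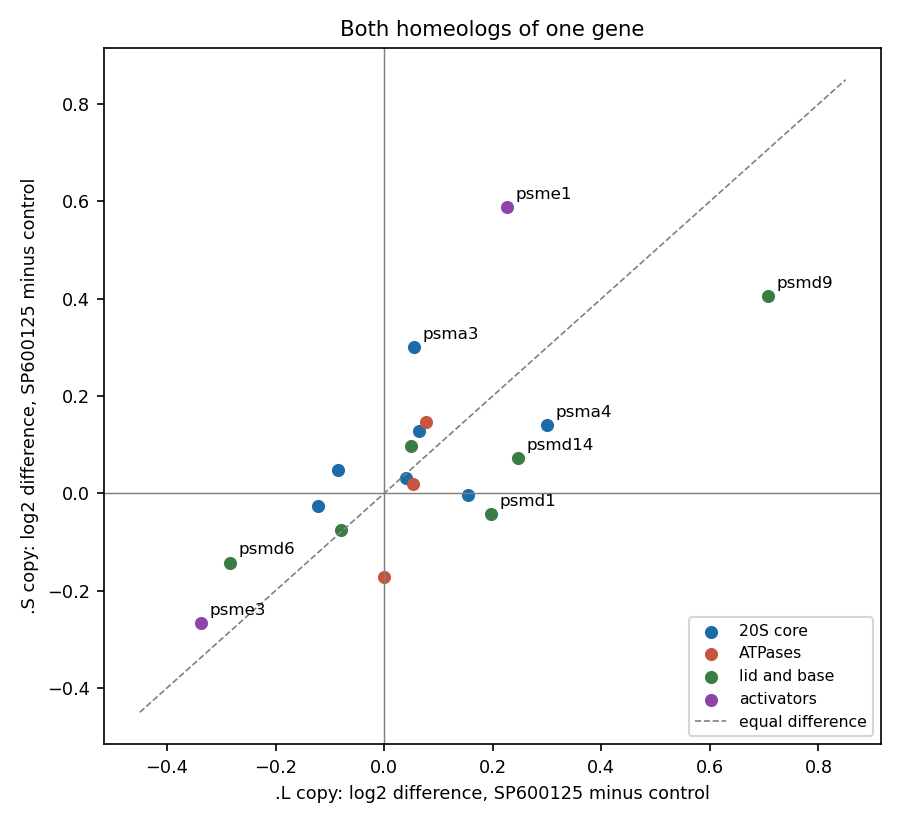
Each point is 1 gene measured in both copies, with the log2 difference, SP600125 minus control, of the .L copy on the x axis and of the .S copy on the y axis. The dashed line marks equal differences. Most of the 18 points lie within 0.2 of 0 on both axes, psmd9 and psme1 lie at the upper right, and psme3 and psmd6 at the lower left.

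The arrays of one group differed more than the groups did. In the proteasome probe sets 76.0% of the sum of squares went with the replicate number and 14.9% with treatment, beside the 62.7% and 20.8% over all probe sets. In 40 of the 61 genes (65.6%) the replicate 2 array was higher than the replicate 1 array in both groups, beside 43.5% of all genes, and in 11 (18.0%) it was lower in both, beside 27.6%. The 11 were psma1.S, psmb4.L, psmb6.S, psmc4.L, psmc5.S, psmd3.S, psmd4.S, psmd6.L, psmd6.S, psme4.L and psmf1.L. They were 3 of the 24 core genes, 2 of the 9 ATPases, 4 of the 18 lid and base genes, 1 of the 6 activators and 1 of the 4 inhibitor and assembly genes. The group was formed from its values and is a description only.

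The gap between arrays was wider in the SP600125 group than in the control group for 47 of the 61 proteasome genes (77.0%), beside 55.6% of all genes. In the list of 56 partner genes described below, the same held for 39 (69.6%). In the 61 genes the median size of this gap was 0.34 log2 units between the SP600125 arrays and 0.19 between the control arrays. Over all genes it was 0.36 and 0.31, and over the partner list 0.50 and 0.40. An example is psmb1.S, a beta subunit, which read 11.13 and 11.65 in SP600125 skins, against 11.28 and 11.37 in control skins. A gene that moved the other way is psmc4.L, at 10.43 and 9.65 in SP600125 skins, against 10.45 and 9.91 in control skins. Among the 11 genes that were lower on the replicate 2 arrays, 10 also had lower means after SP600125 (median −0.14), and among the 40 that were higher, 31 had higher means (median 0.06). Of all 11295 genes, 6107 had higher means and 5186 lower ones. All genes were not split by replicate direction, so the counts among the 11 and the 40 have no matched background. The replicate gaps and the treatment differences come from the same 4 arrays, so neither is independent of the other.

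The small class medians followed which array was used. The median over the 61 genes was 0.19 without SP600125 replicate 1 and −0.06 without SP600125 replicate 2. Set against control replicate 1, the median was −0.04 for SP600125 replicate 1 and 0.26 for SP600125 replicate 2, beside 0.02 and 0.12 over all genes. Set against control replicate 2, the median over the 61 genes was −0.17 for SP600125 replicate 1 and 0.13 for SP600125 replicate 2. Over all genes these were −0.05 and 0.02. For the 20S core the median was 0.19 without SP600125 replicate 1 and −0.10 without SP600125 replicate 2. After cyclic loess normalization the median over the 61 genes was 0.01.

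**Figure D4:**
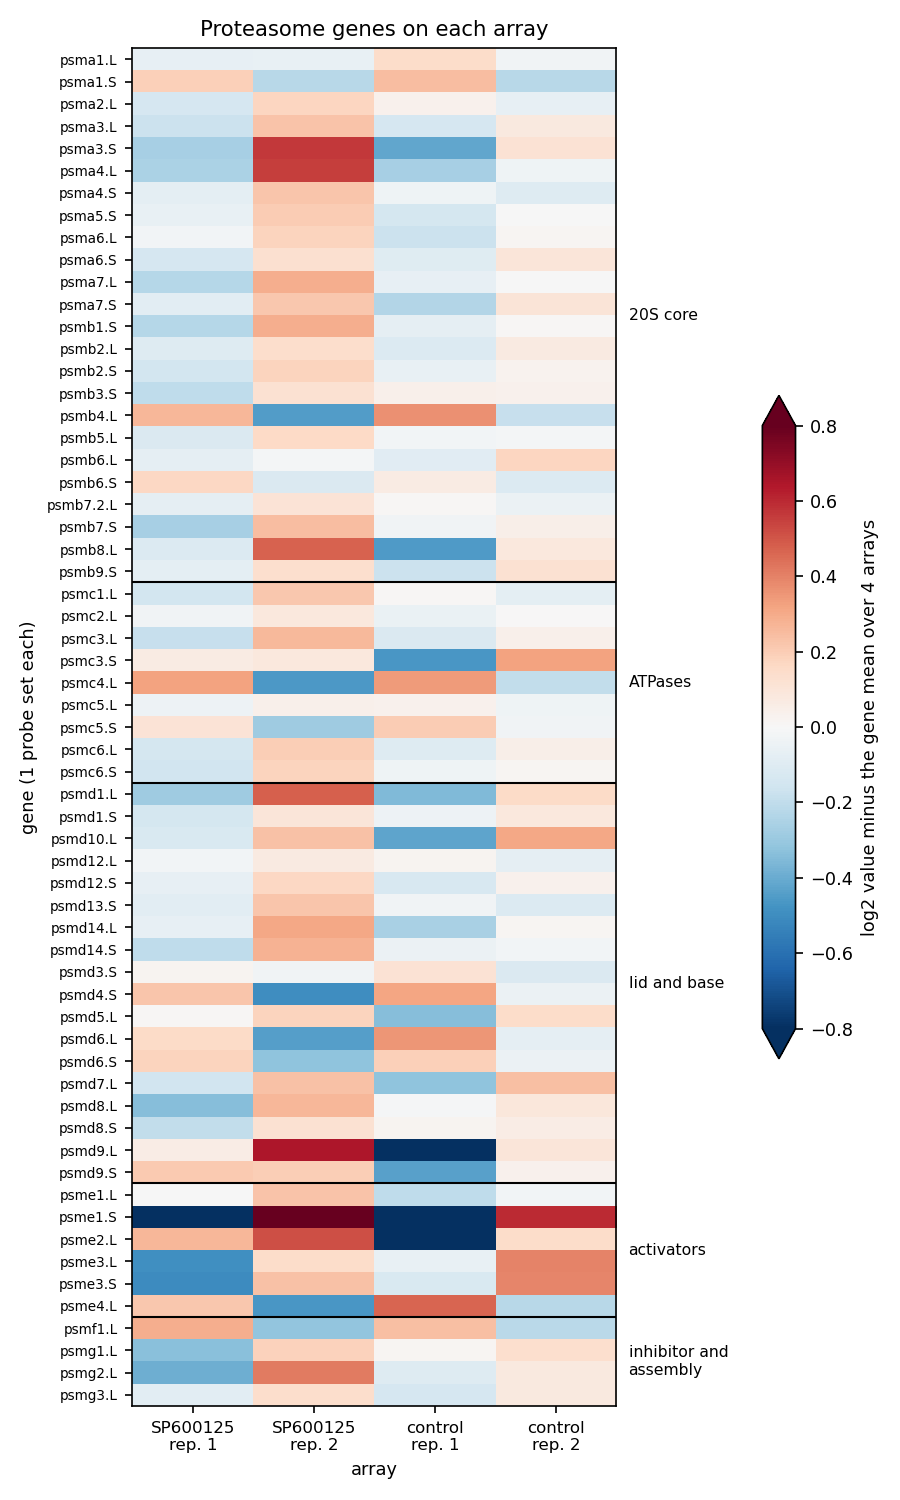
Rows are the 61 proteasome genes by class, columns the 4 arrays, and the colour is the log2 value minus the gene's mean over the arrays (values beyond the scale take the end colour). Most rows are red on SP600125 replicate 2 and blue on SP600125 replicate 1, the 11 genes named in the text run the opposite way, and few rows separate both SP600125 arrays from both controls.

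**Figure D5:**
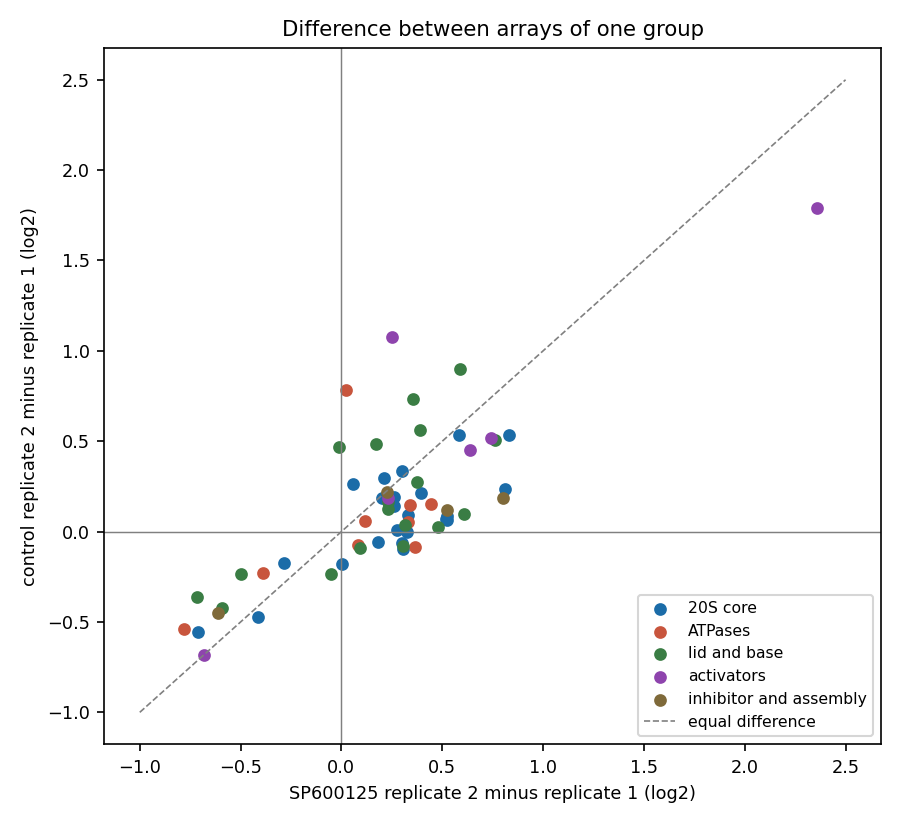
Each point is 1 of the 61 proteasome genes, with the log2 gap between replicates 2 and 1 in the SP600125 group on the x axis and in the control group on the y axis. The dashed line marks equal gaps. Of the points, 40 lie at the upper right and 11 at the lower left, and 47 have a larger gap in the SP600125 group. The point at the far upper right is psme1.S, with 2.36 in the SP600125 group and 1.79 in the control group.

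Genes that work with the proteasome (56 genes of ubiquitin transfer, shuttling and particle assembly) spread more widely, with differences from −0.69 to 0.91 and a median of 0.01, which turned to −0.04 after cyclic loess and to −0.00 after renewed quantile normalization. In this list 6 genes lay above both controls on both SP600125 arrays (10.7%, beside 12.3% of all genes) and 4 below (7.14%, beside 9.1%). None of its probe sets passed at an adjusted p under 0.05 in limma, and 1 of its 56 genes, ube2c.S, had an unadjusted p under 0.05 (0.0387), which is 1.79% of the list, beside 1.66% of all genes. The gene nfe2l1.S, which in mammals encodes the activator of subunit genes, read 7.22 and 6.59 in SP600125 skins, against 6.52 and 7.23 in control skins, a difference of 0.03 ± 0.38. The maturation factor pomp.S differed by 0.09 ± 0.25, and the ubiquitin receptor genes adrm1.L and adrm1.S by 0.01 ± 0.24 and −0.14 ± 0.18.

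The 4 genes of the partner list with the smallest p included both receptors in it that carry ubiquitinated cargo to autophagy. The autophagy receptor sqstm1.L read 9.06 and 8.98 in SP600125 skins, against 7.60 and 8.62 in control skins, a difference of 0.91 ± 0.40. The related receptor nbr1.L differed by 0.59 ± 0.28, and ubxn7.S, a cofactor of the unfoldase vcp, by 0.66 ± 0.35. The level of ube2c.S, the ubiquitin-conjugating enzyme of the anaphase-promoting complex, was 10.52 and 10.71 in SP600125 skins, against 10.08 and 9.95 in control skins (0.60 ± 0.20). In these 4 genes both SP600125 arrays lay above both controls. They were picked by their small p, so this is a description only. The unadjusted p in limma was 0.083 for sqstm1.L, 0.103 for nbr1.L and 0.133 for ubxn7.S. The homeolog ube2c.L differed by 0.37 ± 0.34, and its groups overlapped. The control arrays of sqstm1.L differed by more than its group means did, and without control replicate 1 its difference was 0.41. That of nbr1.L was 0.31 without the same array, and that of ubxn7.S was 0.26 without SP600125 replicate 2.

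The lowest differences of the list, in genes named after their values were seen, changed in size or sign when single arrays were left out. The ubiquitin-activating enzyme gene uba1.L read 9.41 and 7.66 in SP600125 skins, against 9.32 and 9.13 in control skins. The copy uba1.S read 10.23 and 8.75 in SP600125 skins, against 10.52 and 9.69 in control skins. The unfoldase gene vcp.S read 11.22 and 9.34 in SP600125 skins, against 11.40 and 10.44 in control skins. In all 3, SP600125 replicate 2 was the lowest array, and without it the differences were 0.19, 0.13 and 0.31, against −0.69, −0.61 and −0.64 with it. Without control replicate 1 they were −0.59, −0.19 and −0.15. Each of these genes was also lower on replicate 2 than on replicate 1 in the control group, so runs without 1 array contain part of that gap. At each replicate number uba1.S and vcp.S were lower in SP600125 skins than in control skins. For uba1.L this held at replicate 2 only.

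Muscle and endoderm transcripts stood lower in the SP600125 samples, the summed neural signal overlapped between the groups, and the summed skin signal was bright in all. Single skin markers were not all bright: tp63.L had a mean log2 level of 6.03, and the brightest, itln1.L, had 14.2. The marker lists were chosen with earlier results of these data known, so their counts are a description only. Of 21 muscle and somite markers 20 had lower means and 15 lay below both controls on both SP600125 arrays, beside 9.1% of all genes. Their summed linear signal was 2535 and 3168 in SP600125 skins, against 11416 and 6268 in control skins. Of 13 endoderm markers 12 had lower means, with sums of 1785 and 1627 in SP600125 skins, against 3283 and 2885 in control skins. Of 8 neural markers 6 had lower means but 1 lay below both controls, with overlapping sums of 4121 and 4241 in SP600125 skins, against 6573 and 4039 in control skins. Of 20 skin markers 15 had higher means, beside 6107 of all 11295 genes, and 5 lay above both controls on both SP600125 arrays, beside 12.3% of all genes. Their sums were 93349 and 91958 in SP600125 skins, against 88636 and 86362 in control skins. Their mean log2 levels overlapped, at 10.61 and 10.12 in SP600125 skins, against 10.43 and 10.09 in control skins. The epidermal keratin gene krt12.4.L read 13.88 and 13.92 in SP600125 skins, against 13.76 and 13.86 in control skins. RMA values have no 0, and 3 muscle, 2 endoderm and no neural or skin markers were under 5 on all arrays. The part of this difference in tissue content in the proteasome values was not tested.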

How the data were processed

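The deposited values are log2 levels of probe sets. They were made with affy by RMA, per the submitters' processing notes, which give no versions. RMA forces the arrays to equal quantiles at the level of single probes, before these are summarised to probe sets, so a shift common to most transcripts is lost. The deposited log2 values ran from 2.60 to 14.3, with array medians from 6.85 to 6.94. Of 16755 probe sets, 10 controls were left out. Names came from GEO's platform annotation: 15445 probe sets had 1 symbol, 279 several and 1021 none. All 76 proteasome probe sets were found in RefSeq's table for Xenopus_laevis_v10.1, used for names and neighbours only.

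A gene was represented by its probe set with the highest mean, with no filter on low values. Of the 61 genes, 5 had a mean log2 value under 5, as had 10 of the 76 probe sets. Groups were compared with limma 3.58.1 in R 4.3.3 (2 residual and 2.10 prior degrees of freedom). A run on simulated data checked the sign and size of the estimates, for changes larger than any proteasome difference seen here. It does not show how often changes of the size seen here would be found. Figures were drawn with matplotlib 3.10.9.

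All lists were chosen with earlier results of these data known. Named were, in each class, the 3 genes with the smallest p, the highest and the lowest difference, their homeologs, and psmb5 to psmb10, psmd4, psmd11, psmd14, psmc3ip and all psme, psmf and psmg genes. In the partner list they were the 4 genes with the smallest p, nfe2l1, pomp and adrm1. Other genes are examples or parts of a range. Alternative fits used a replicate block, no dim probe sets, cyclic loess or renewed quantile normalization, a trended robust prior, an adjusted p under 0.1, the average of all probe sets of a gene, and each array left out in turn.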

Additional observations from a re-analysis of the deposited data

How the results depend on the processing

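No probe set passed at an adjusted p under 0.05 in any run of limma, nor at 0.1. Under a replicate block, 1063 of 16745 probe sets had an unadjusted p under 0.05, against 269 without it. Of the 76 proteasome probe sets 2 did (psmd9.L and psme2.L), against 0 without the block. This was a smaller share than over all probe sets. Samples with the same number deviated together from their group means (correlation across probe sets 0.59 over all and 0.79 over the proteasome), but with 2 pairs and no label on what the number marks this does not pair the samples. Without dim probe sets the count at that p was 158, for which fewer probe sets were tested, and with each array left out it ran from 149 to 516, with 0 to 1 proteasome probe sets.

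Runs without 1 array leave the replicate numbers uneven between the groups, so their differences contain part of the gap between replicates. Such runs have 1 residual degree of freedom and take the lone array to vary like the other group. In them the class medians ran from −0.10 to 0.19 for the 20S core, from −0.042 to 0.16 for the ATPases, from −0.037 to 0.25 for the lid and base, from −0.25 to 0.22 for the activators and from −0.22 to 0.14 for the inhibitor and assembly genes. The partner list ran from −0.091 to 0.11. Of 49 named genes, 35 turned sign in some such run, and psmc5.L, at 0.00, has no sign to keep. In the core, genes that turned ran from −0.14 to 0.25 for psma3.L, −0.12 to 0.72 for psma3.S, −0.11 to 0.71 for psma4.L, −0.0095 to 0.29 for psma4.S, −0.54 to 0.17 for psmb4.L, −0.098 to 0.18 for psmb5.L, −0.22 to 0.047 for psmb6.L, −0.093 to 0.19 for psmb6.S, −0.053 to 0.13 for psmb7.2.L, −0.28 to 0.24 for psmb7.S, −0.093 to 0.20 for psmb9.S and −0.26 to 0.21 for psma1.S. In the ATPases, lid and base they ran from −0.15 to 0.30 for psmc3.L, −0.25 to 0.54 for psmc3.S, −0.53 to 0.25 for psmc4.L, −0.37 to 0.024 for psmc5.S, −0.17 to 0.31 for psmd14.S, −0.63 to 0.088 for psmd4.S, −0.58 to 0.013 for psmd6.L, −0.39 to 0.11 for psmd6.S and −0.12 to 0.12 for psmd3.S. In the remaining proteasome classes and psmc3ip.L they ran from −0.59 to 1.77 for psme1.S, −0.64 to 0.10 for psme3.S, −0.59 to 0.096 for psme4.L, −0.33 to 0.28 for psmf1.L, −0.41 to 0.11 for psmg1.L, −0.38 to 0.43 for psmg2.L, −0.057 to 0.17 for psmg3.L and −0.13 to 0.48 for psmc3ip.L. In the partner list they ran from −0.19 to 0.21 for adrm1.L, −0.11 to 0.29 for pomp.S, −0.32 to 0.38 for nfe2l1.S, −1.35 to 0.13 for uba1.S, −1.56 to 0.19 for uba1.L and −1.58 to 0.31 for vcp.S. Cyclic loess turned psmb5.L to −0.0047, psmb6.S to −0.0017, psmg2.L to −0.028 and adrm1.L to −0.035, and averaging the probe sets of a gene turned psmb5.L to −0.014 and nfe2l1.S to −0.0049. The cause of these turns was not tested. The other 13 named genes kept their sign, most with a clear change in size. They ran from 0.26 to 1.16 for psmd9.L, 0.17 to 0.64 for psmd9.S, 0.24 to 1.32 for psme2.L, 0.11 to 0.34 for psme1.L, −0.66 to −0.019 for psme3.L, 0.074 to 0.66 for psmb8.L, 0.059 to 0.43 for psmd14.L, −0.21 to −0.033 for psma1.L, −0.15 to −0.12 for adrm1.S, 0.41 to 1.42 for sqstm1.L, 0.31 to 0.86 for nbr1.L, 0.26 to 1.06 for ubxn7.S and 0.51 to 0.69 for ube2c.S. Without dim probe sets the activator median was −0.26. The number of arrays and, for 5 genes with a mean log2 value under 5, low signal limit what could be seen. Of these, psme1.S was under 5 on the replicate 1 arrays only.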
